A study of Mus musculus with 12 samples.

Results

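Astrocyte genes were followed through the cortex of mice that carried the APP/PS1 transgenes, lacked Sirt3, or both. The set held 34 of the 35275 genes in the deposited table, taken by gene symbol: 9 markers of resting astrocytes and 25 genes of reactive astrocytes. The reactive genes were 10 pan-reactive genes, which respond to most injuries, 5 genes named A1, first described after inflammatory challenge, and 10 genes named A2, first described after ischaemia. Reads were enough for a test in 31 of the 34 genes, that is in all 9 resting markers and in 22 reactive genes. The 3 genes left out of the tests, Ptx3, Slc10a6 and B3gnt5, were all A2 genes.

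Astrocytes are the glial cells that clear glutamate and potassium from around synapses, cover blood vessels with their endfeet and join into networks through gap junctions. After injury, and around amyloid plaques, they become reactive: they enlarge and make more intermediate filament protein, with Gfap as the gene most used to mark them. The cytokines of the interleukin-6 family, acting through the kinase Jak2 and the transcription factor Stat3, are known drivers of Gfap expression, and the names A1 and A2 describe gene sets from mouse injury models rather than fixed cell types.

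The 12 libraries came from brain cortex of mice labelled female and 8 months old, 3 libraries for each of 4 genotypes. APP/PS1/Sirt3-/- mice combined the transgenes for human APP and mutant presenilin 1, the model of amyloid deposition, with a global deletion of Sirt3, the mitochondrial deacetylase whose loss the study used as a model of metabolic syndrome. APP/PS1 mice carried the transgenes with Sirt3 intact, Sirt3-/- mice carried the deletion alone, and WT mice carried none of these. The study's methods name wild types of 2 backgrounds, 129 Sv and C57BL/6, Sirt3-/- mice on each of these, and APP/PS1 mice on C57BL/6. Neither the background of the Sirt3-/- and WT mice sequenced nor the promoters of the transgenes were stated in the sources used here, so strain and genotype cannot be told apart. Every deletion is in all cells of the body, so no group isolates astrocytes. The replicate numbers in the titles are 1, 2 and 4 in each group, and 3 values for a group are always given in that order. The titles number the libraries, but nothing in the labels says that each is a separate mouse, so p-values measure the spread between libraries.

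Each library held between 15251720 and 18644376 reads in genes. Sirt3 stood at 28.6, 0.211 and 27.7 CPM (counts scaled to equal library sizes) in the libraries labelled APP/PS1/Sirt3-/-, so replicates 1 and 4 held Sirt3 reads. The reads were 495, 4 and 479, against 1064, 957 and 1016 in WT libraries and 3, 8 and 7 in Sirt3-/- libraries. App stood at 3614, 3794 and 1623 CPM in the libraries labelled APP/PS1, so replicate 4 was at the level of WT libraries (1828, 1786 and 1755 CPM). These 3 libraries are called by their labels below. Replicate 4 of every group held Y-linked reads and few Xist reads, against the label. The 9 resting markers were all present in every library, but markers of thalamus and striatum also differed between libraries of cortex (values below). In whole tissue, fewer cells of a type and less RNA per cell cannot be told apart.

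Levels between genes were compared on the FPKM scale, which divides by gene length. Resting markers were the abundant members. Slc1a2, the main glutamate transporter of forebrain astrocytes, came first with a median of 197 FPKM over the 12 libraries (181 to 251), ahead of Slc1a3, the other astrocyte glutamate transporter, with 98.8 FPKM (86.2 to 116). Gfap came next by its median, 89.3 FPKM, but its range of 44.8 to 235 FPKM covered S100b, a calcium-binding protein, at 87.4 FPKM (67.6 to 116), so those neighbours in the order were not separated. Gja1 and Gjb6, which encode the gap junction proteins connexin 43 and connexin 30, had medians of 54.8 and 27.2 FPKM. The 9 resting markers had medians between 10.3 FPKM (Sox9) and 197 FPKM (Slc1a2), whereas the 25 reactive genes had medians between 0 and 89.3 FPKM, and 1.66 FPKM was the middle of those medians.

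Spread between libraries was also unequal. Highest over lowest FPKM was 1.28 for Gja1 and 1.38 for Slc1a2, against 5.25 for Gfap and 5.27 for Amigo2. Larger ratios, such as 27.1 for the acute-phase gene Lcn2, belonged to genes with few reads.

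Resting markers had mostly small negative differences from WT, and none passed the test. Log2 fold changes were negative for 6 of 9 in APP/PS1/Sirt3-/-, 6 of 9 in APP/PS1 and 8 of 9 in Sirt3-/-, each against WT, where 48.8%, 48.7% and 49.5% of all genes tested were negative. In a list of 20 further resting astrocyte genes 15, 7 and 17 were negative, so the sign in APP/PS1 was not shared by that list. Here and below a gene passed when the edgeR quasi-likelihood test over all 16673 genes tested gave an adjusted p under 0.05 (Benjamini and Hochberg). In APP/PS1/Sirt3-/- against WT, 0 of the 31 members tested passed, where 1.13% of all genes did. In APP/PS1 against WT it was 0 of 31 with a background of 0%, and in Sirt3-/- against WT 0 of 31 with 0.294%. At an unadjusted p under 0.05 there were 5 of 31 members in APP/PS1/Sirt3-/- against WT (1 higher, background 10.5%, and 4 lower, background 9.56%). There were 6 in APP/PS1 against WT (3 higher, background 8.35%, and 3 lower, background 8.65%) and 5 in Sirt3-/- against WT (0 higher, background 7.49%, and 5 lower, background 6.02%). DESeq2 on the same 12 libraries called 2 members in APP/PS1/Sirt3-/- against WT (background 6.31%), 1 in APP/PS1 against WT (background 3.07%) and 2 in Sirt3-/- against WT (background 2.60%).

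**Figure D1:**
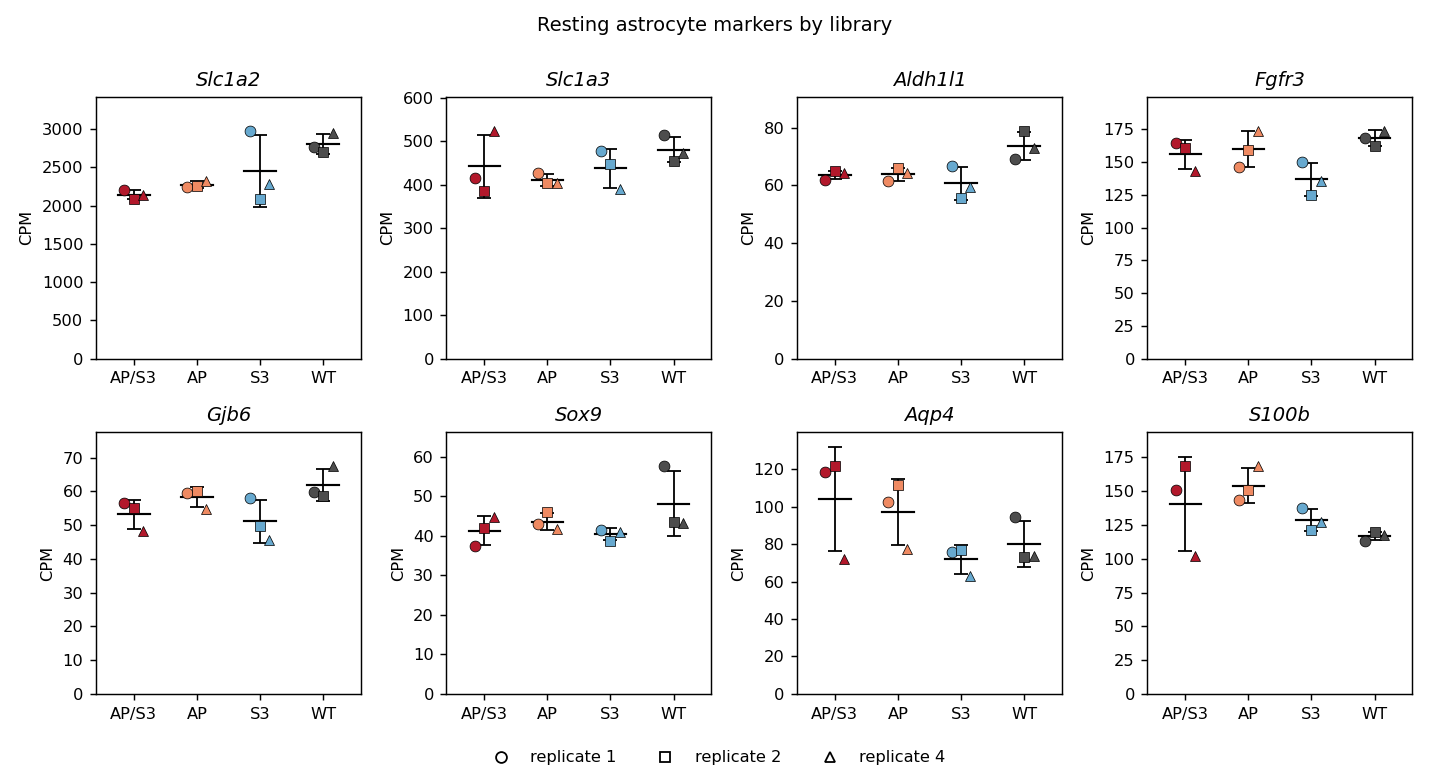
CPM of 8 resting astrocyte markers by library, with a linear axis from 0. Groups are APP/PS1/Sirt3-/- (AP/S3), APP/PS1 (AP), Sirt3-/- (S3) and WT, each with 3 libraries marked by replicate, and lines give mean ± SD. Slc1a2 and Aldh1l1 lie below all WT libraries in both APP/PS1 groups, while Aqp4 and S100b do not. APP/PS1 replicate 4 has App at the WT level.

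Slc1a2 was among the 3 members with the smallest p in both APP/PS1 groups against WT. The gene lies on chromosome 2, 102658659 to 102790784, plus strand (GRCm38, as are all positions). It measured 2208, 2088 and 2138 CPM in APP/PS1/Sirt3-/- libraries, 2238, 2256 and 2321 CPM in APP/PS1 libraries, 2978, 2084 and 2286 CPM in Sirt3-/- libraries and 2764, 2703 and 2945 CPM in WT libraries. All 6 libraries of the APP/PS1 groups were below all 3 WT libraries, among them APP/PS1 replicate 4, which had App at the WT level. Sirt3-/- replicate 1 was above WT. The log2 fold change was -0.39 (SE 0.11, adjusted p = 0.0813) in APP/PS1/Sirt3-/- against WT and -0.30 (SE 0.11, adjusted p = 0.192) in APP/PS1 against WT. Without the 3 libraries against their labels the values were -0.43 and -0.32. With thalamic, striatal and choroid plexus marker levels as covariates they were -0.11 and -0.02. Thalamic marker levels were higher in all libraries of the APP/PS1 groups than in all WT libraries, so this fit cannot separate region from genotype. Slc1a2 shares 189 bases of exon with Gm13872 on the other strand, and the library kit does not mark strand, so their reads cannot be told apart.

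Aldh1l1, a folate enzyme that marks most astrocytes (chromosome 6, 90486427 to 90600203, plus strand), measured 62.1, 64.9 and 64.2 CPM in APP/PS1/Sirt3-/- libraries, 61.5, 65.9 and 64.3 CPM in APP/PS1 libraries, 66.9, 55.6 and 59.6 CPM in Sirt3-/- libraries and 69.3, 79.0 and 72.9 CPM in WT libraries. Each mutant group lay below WT without overlap. The log2 fold change was -0.21 (SE 0.08, adjusted p = 0.147) in APP/PS1/Sirt3-/- against WT and -0.28 (SE 0.08, adjusted p = 0.136) in Sirt3-/- against WT. The value in APP/PS1/Sirt3-/- was -0.19 without the 3 libraries against their labels, and it turned to 0.07 (edgeR adjusted p = 0.979) with the brain region covariates. Aldh1l1 overlaps exons of Gm15756 on the other strand over 499 bases.

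In Sirt3-/- against WT the next members by p were 2 other resting markers. Fgfr3, a fibroblast growth factor receptor of astrocytes and their progenitors, measured 149.8, 125 and 135 CPM in Sirt3-/- libraries, against 169, 162 and 174 CPM in WT libraries, a log2 fold change of -0.30 (SE 0.08, adjusted p = 0.150). Gjb6 measured 58.2, 49.6 and 45.6 CPM in Sirt3-/- libraries, against 59.8, 58.7 and 67.5 CPM in WT libraries, with -0.28 (SE 0.10, adjusted p = 0.227). In both genes the Sirt3-/- libraries lay below all WT libraries, for Gjb6 by a narrow margin. Fgfr3 overlaps exons of G630022F23Rik on the other strand over 998 bases. Sox9, a transcription factor of astrocytes, also did not overlap, with 41.6, 38.6 and 40.9 CPM in Sirt3-/- libraries, against 57.6, 43.4 and 43.2 CPM in WT libraries. In Sirt3-/- against WT the median over the 9 resting markers was -0.20, beside 0.00 over all genes tested.

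Aqp4, the water channel of astrocyte endfeet, went the other way. It measured 119, 122 and 72.4 CPM in APP/PS1/Sirt3-/- libraries, 102, 112 and 77.6 CPM in APP/PS1 libraries, 75.7, 76.9 and 63.0 CPM in Sirt3-/- libraries and 94.6, 73.0 and 73.6 CPM in WT libraries. APP/PS1/Sirt3-/- replicates 1 and 2 and APP/PS1 replicates 1 and 2 were above every other library, and replicate 4 of both groups was within the range of WT or just below it. Sirt3-/- replicate 4 was also the lowest of its group, while WT replicate 4 was not. Replicate 4 held Y-linked reads in every group. The averaged difference with APP/PS1 was 0.41 (SE 0.14) for Aqp4, with 0.26 under the brain region covariates. With a sex covariate Aqp4 passed in the averaged comparison, where 2.38% of all genes did. S100b measured 151, 168 and 102 CPM in APP/PS1/Sirt3-/- libraries, 143, 151 and 168 CPM in APP/PS1 libraries, 138, 122 and 127 CPM in Sirt3-/- libraries and 113, 119.8 and 117 CPM in WT libraries, higher than all WT libraries in the APP/PS1 and the Sirt3-/- libraries and in APP/PS1/Sirt3-/- replicates 1 and 2, with APP/PS1/Sirt3-/- replicate 4 the lowest of the series. Gja1 and Slc1a3 had log2 fold changes between -0.22 and 0.05 across the 3 comparisons against WT.

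Among reactive genes, Gfap, Vim and the A1 gene Amigo2 had the smallest p for APP/PS1 averaged over both Sirt3 genotypes. Again none passed the test. In APP/PS1 against WT the members with the smallest p were instead Amigo2, H2-T23 and Slc1a2. Averaged over both Sirt3 genotypes (the mean of the differences APP/PS1/Sirt3-/- minus Sirt3-/- and APP/PS1 minus WT), 0 of 31 members passed, against 2.05% of all genes, and 8 of 31 had an unadjusted p under 0.05 (6 higher, background 10.6%, and 2 lower, background 10.3%). The 3 members with the smallest p were Amigo2, Vim and Gfap. Their fold changes were 0.98 (SE 0.25, adjusted p = 0.0707) for Amigo2, 0.32 (SE 0.09, adjusted p = 0.0708) for Vim and 0.93 (SE 0.25, adjusted p = 0.0895) for Gfap, on the log2 scale. DESeq2 called 5 members in this comparison (background 6.58%), Amigo2, Aqp4, Gfap and Vim as higher and Slc1a2 as lower. Without the 3 libraries that went against their labels by Sirt3 or App, edgeR called 3 members, Aqp4, Gfap and S100b (background 2.72%), and the log2 fold changes were 1.16 for Gfap, 1.08 for Amigo2 and 0.36 for Vim.

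The promoter windows of Amigo2, Vim and Gfap are shown because these genes had the smallest p in the averaged comparison, and because Gfap is a known target of Stat3. Each window runs from 250 bases before to 50 bases after the RefSeq gene start on GRCm38.p6, 5′ to 3′ on the strand of the gene. Gfap lies at chr11:102897151-102897450 on the minus strand, Vim at chr2:13574061-13574360 on the plus strand and Amigo2 at chr15:97247238-97247537 on the minus strand. Capitals mark matches to the STAT motif TTCNNNGAA, which reads the same on both strands.
Gfap: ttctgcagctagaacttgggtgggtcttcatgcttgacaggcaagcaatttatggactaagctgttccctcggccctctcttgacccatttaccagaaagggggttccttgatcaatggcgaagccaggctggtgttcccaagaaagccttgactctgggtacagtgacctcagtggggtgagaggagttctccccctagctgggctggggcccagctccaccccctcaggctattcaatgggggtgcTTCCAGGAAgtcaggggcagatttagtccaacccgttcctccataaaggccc
Vim: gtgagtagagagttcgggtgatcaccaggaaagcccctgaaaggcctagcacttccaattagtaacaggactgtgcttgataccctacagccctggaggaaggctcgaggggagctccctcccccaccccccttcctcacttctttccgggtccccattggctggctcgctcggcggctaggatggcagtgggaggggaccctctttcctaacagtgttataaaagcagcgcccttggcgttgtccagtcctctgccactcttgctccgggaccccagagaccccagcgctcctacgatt
Amigo2: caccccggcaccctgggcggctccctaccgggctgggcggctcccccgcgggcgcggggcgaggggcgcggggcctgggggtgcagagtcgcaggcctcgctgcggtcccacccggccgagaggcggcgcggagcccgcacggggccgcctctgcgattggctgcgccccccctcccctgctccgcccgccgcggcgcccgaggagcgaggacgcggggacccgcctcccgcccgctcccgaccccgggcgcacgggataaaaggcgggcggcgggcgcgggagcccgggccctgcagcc

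The Gfap window held the motif once, as TTCCAGGAA, at positions 249 to 257, across the RefSeq start. The Vim and Amigo2 windows held no match. The Gfap and Vim windows lie inside the gene spans given below, and sequence further upstream was not searched. The motif was in 8.30% of all 32851 promoter windows. Windows were found for 29 member genes, 39 windows in all, of which 7 (17.9%, with 1 Sphk1 site counted in a pair of overlapping windows) held it, in Emp1, Gfap, Slc1a3, Sphk1, Steap4 and Tgm1. The AP-1 motif TGANTCA, searched on both strands, was in 7.81% of all windows and in 6 of the 39 member windows (15.4%, again with 1 Sphk1 site counted in that pair), in Cp, Emp1, Gja1, Osmr and Sphk1, and in Emp1 an AP-1 match overlaps a STAT match. A match describes letters only, and none was set against binding.

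**Figure D2:**
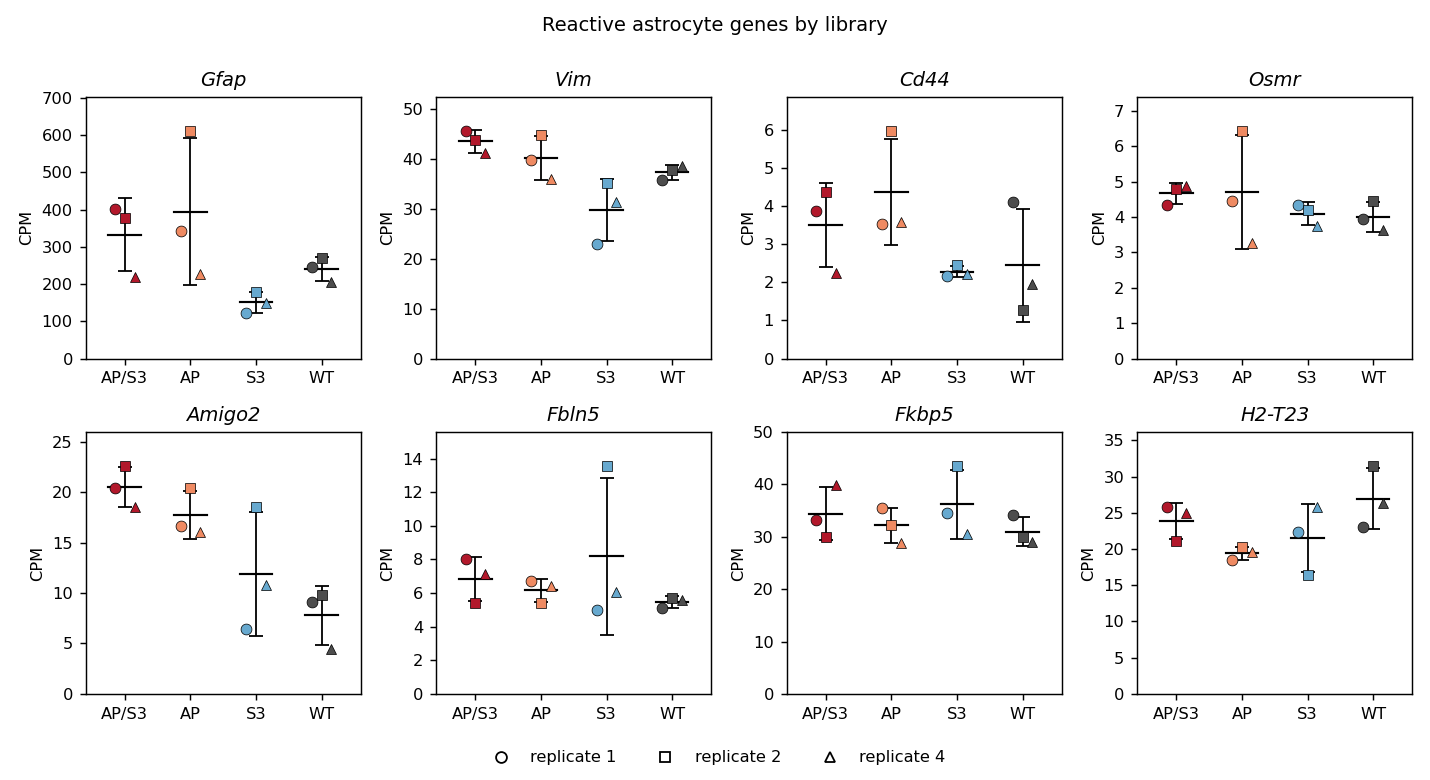
CPM of 8 reactive astrocyte genes by library, with a linear axis from 0. Groups and symbols are APP/PS1/Sirt3-/- (AP/S3), APP/PS1 (AP), Sirt3-/- (S3) and WT, and lines give mean ± SD of 3 libraries. Gfap reaches 611 CPM in APP/PS1 replicate 2, while replicate 4 of both APP/PS1 groups lies among the WT values. Amigo2 is above all WT libraries in all 6 libraries of the APP/PS1 groups, among them APP/PS1 replicate 4, which has App at the WT level.

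Gfap, the main intermediate filament of astrocytes (chromosome 11, 102887336 to 102900912, minus strand), measured 401, 377 and 220.1 CPM in APP/PS1/Sirt3-/- libraries, 343, 611 and 227 CPM in APP/PS1 libraries, 122, 179.8 and 150.3 CPM in Sirt3-/- libraries and 247, 269 and 204 CPM in WT libraries. The highest library was APP/PS1 replicate 2, and replicate 4 was the lowest of its group in both APP/PS1 groups, within the range of WT. All 3 Sirt3-/- libraries were below all WT libraries. Log2 fold changes were 0.47 (SE 0.36) in APP/PS1/Sirt3-/- against WT, 0.71 (SE 0.36) in APP/PS1 against WT and -0.67 (SE 0.36) in Sirt3-/- against WT, with adjusted p of 0.505, 0.339 and 0.460. The averaged difference above sets APP/PS1/Sirt3-/- against Sirt3-/-, where Gfap was lowest. Without the 3 libraries against their labels Gfap had 0.65 in APP/PS1/Sirt3-/- and 0.99 in APP/PS1, each against WT. Means were 333 ± 98.5 CPM in APP/PS1/Sirt3-/-, 394 ± 197 CPM in APP/PS1, 151 ± 29.1 CPM in Sirt3-/- and 240.1 ± 33.1 CPM in WT (SD, n = 3 each).

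Vim (chromosome 2, 13573927 to 13582826, plus strand) encodes vimentin, another filament protein of reactive astrocytes, which endothelial and other cells also make. It measured 45.7, 43.8 and 41.2 CPM in APP/PS1/Sirt3-/- libraries, 39.9, 44.8 and 36.1 CPM in APP/PS1 libraries, 23.1, 35.2 and 31.4 CPM in Sirt3-/- libraries and 35.7, 37.9 and 38.7 CPM in WT libraries. The APP/PS1/Sirt3-/- libraries were above, and the Sirt3-/- libraries below, all WT libraries, and the APP/PS1 libraries overlapped WT. With the brain region covariates the averaged log2 fold change of Vim was 0.11 (adjusted p = 0.969), against 0.65 (adjusted p = 0.941) for Gfap and 0.70 (adjusted p = 0.849) for Amigo2.

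Among the other pan-reactive genes, Cd44, a hyaluronan receptor, measured 3.87, 4.38 and 2.26 CPM in APP/PS1/Sirt3-/- libraries, 3.53, 5.98 and 3.60 CPM in APP/PS1 libraries, 2.17, 2.45 and 2.22 CPM in Sirt3-/- libraries and 4.11, 1.26 and 1.97 CPM in WT libraries. APP/PS1 replicate 2 was the highest library and WT replicate 1 exceeded 4 of the 6 libraries of the APP/PS1 groups, so the groups overlapped. Osmr, the receptor subunit for oncostatin M, was highest in the same APP/PS1 replicate 2, at 6.43 CPM, and between 3.25 and 4.86 CPM in the other libraries. In contrast to these, S1pr3, a sphingosine 1-phosphate receptor, measured 10.3, 9.13 and 9.49 CPM in APP/PS1/Sirt3-/- libraries, against 11.5, 10.9 and 14.8 CPM in WT libraries, lower in all APP/PS1/Sirt3-/- libraries. Timp1, an inhibitor of metalloproteinases, measured 2.02, 1.90 and 1.50 CPM in APP/PS1/Sirt3-/- libraries, 1.44, 1.80 and 1.94 CPM in APP/PS1 libraries, 2.17, 2.45 and 2.47 CPM in Sirt3-/- libraries and 3.71, 2.19 and 1.59 CPM in WT libraries, and the groups overlapped. Ceruloplasmin (Cp), a copper-carrying ferroxidase, was level, with log2 fold changes between -0.03 and 0.00 in the 3 comparisons against WT. Aspg had log2 fold changes of 0.35 (SE 0.25) in APP/PS1/Sirt3-/-, 0.19 (SE 0.25) in APP/PS1 and 0.06 (SE 0.25) in Sirt3-/-, each against WT.

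Lcn2 and Steap4 rested on few reads. Lcn2, a secreted iron-siderophore carrier, had 23, 4 and 3 reads in APP/PS1/Sirt3-/- libraries, 6, 4 and 26 in APP/PS1 libraries, 8, 6 and 16 in Sirt3-/- libraries and 1, 4 and 2 in WT libraries. The libraries with the most reads were 1 in each mutant group, and no fold is given against so few WT reads. Steap4, a metalloreductase, had 12, 22 and 3 reads in APP/PS1/Sirt3-/-, 6, 10 and 15 in APP/PS1, 5, 9 and 9 in Sirt3-/- and 13, 20 and 2 in WT, with no order between groups.

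Of the 5 A1 genes, Amigo2 alone was above WT in both APP/PS1 groups without overlap. Amigo2, a cell adhesion protein (chromosome 15, 97244074 to 97247287, minus strand), measured 20.4, 22.6 and 18.6 CPM in APP/PS1/Sirt3-/- libraries, 16.7, 20.5 and 16.1 CPM in APP/PS1 libraries, 6.39, 18.5 and 10.8 CPM in Sirt3-/- libraries and 9.08, 9.84 and 4.44 CPM in WT libraries. All 6 libraries of the APP/PS1 groups were above all WT libraries, among them APP/PS1 replicate 4, which had App at the WT level. Sirt3-/- libraries spanned the gap, with replicate 2 at the level of the APP/PS1 groups. The log2 fold change was 1.40 (SE 0.36, adjusted p = 0.0812) in APP/PS1/Sirt3-/- against WT and 1.19 (SE 0.36, adjusted p = 0.167) in APP/PS1 against WT. Both missed the threshold. Both passed when only the compared groups were fitted with edgeR (adjusted p = 0.0272 and 0.0456, where 4.67% and 6.81% of all genes passed) and with DESeq2. Without the 3 libraries against their labels they were 1.53 and 1.25, and with the brain region covariates 1.10 and 0.68. Amigo2 shares 58 bases of exon with Pced1b on the other strand. It is also made by neurons of some brain regions.

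H2-T23, a non-classical class I histocompatibility gene (chromosome 17, 36029773 to 36032855, minus strand), was lower in APP/PS1. It measured 25.7, 21.1 and 24.9 CPM in APP/PS1/Sirt3-/- libraries, 18.5, 20.3 and 19.6 CPM in APP/PS1 libraries, 22.4, 16.4 and 25.8 CPM in Sirt3-/- libraries and 23, 31.4 and 26.4 CPM in WT libraries, and all APP/PS1 libraries were below all WT libraries and below all APP/PS1/Sirt3-/- libraries. Its log2 fold change was -0.47 (SE 0.15, adjusted p = 0.168) in APP/PS1 against WT, with a similar value of -0.475 without the 3 libraries against their labels. H2-T23 belongs to a family of near-identical genes, between which reads may have been split.

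Fkbp5, a co-chaperone induced by glucocorticoids, measured 33.3, 30.0 and 39.9 CPM in APP/PS1/Sirt3-/- libraries, 35.5, 32.2 and 28.8 CPM in APP/PS1 libraries, 34.5, 43.5 and 30.6 CPM in Sirt3-/- libraries and 34.1, 29.9 and 29.0 CPM in WT libraries, and the groups overlapped. Fbln5, an extracellular matrix protein, reached 13.5 CPM in Sirt3-/- replicate 2 and lay between 4.96 and 8.02 CPM elsewhere, and Srgn, a proteoglycan of secretory granules, lay between 4.05 and 6.15 CPM. In Fkbp5, Fbln5 and Amigo2 alike the highest Sirt3-/- library was replicate 2, while H2-T23 was at its lowest of the series there. That library also had the highest striatal marker level of the series and a high choroid plexus level. How far region accounts for these levels was not tested.

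**Figure D3:**
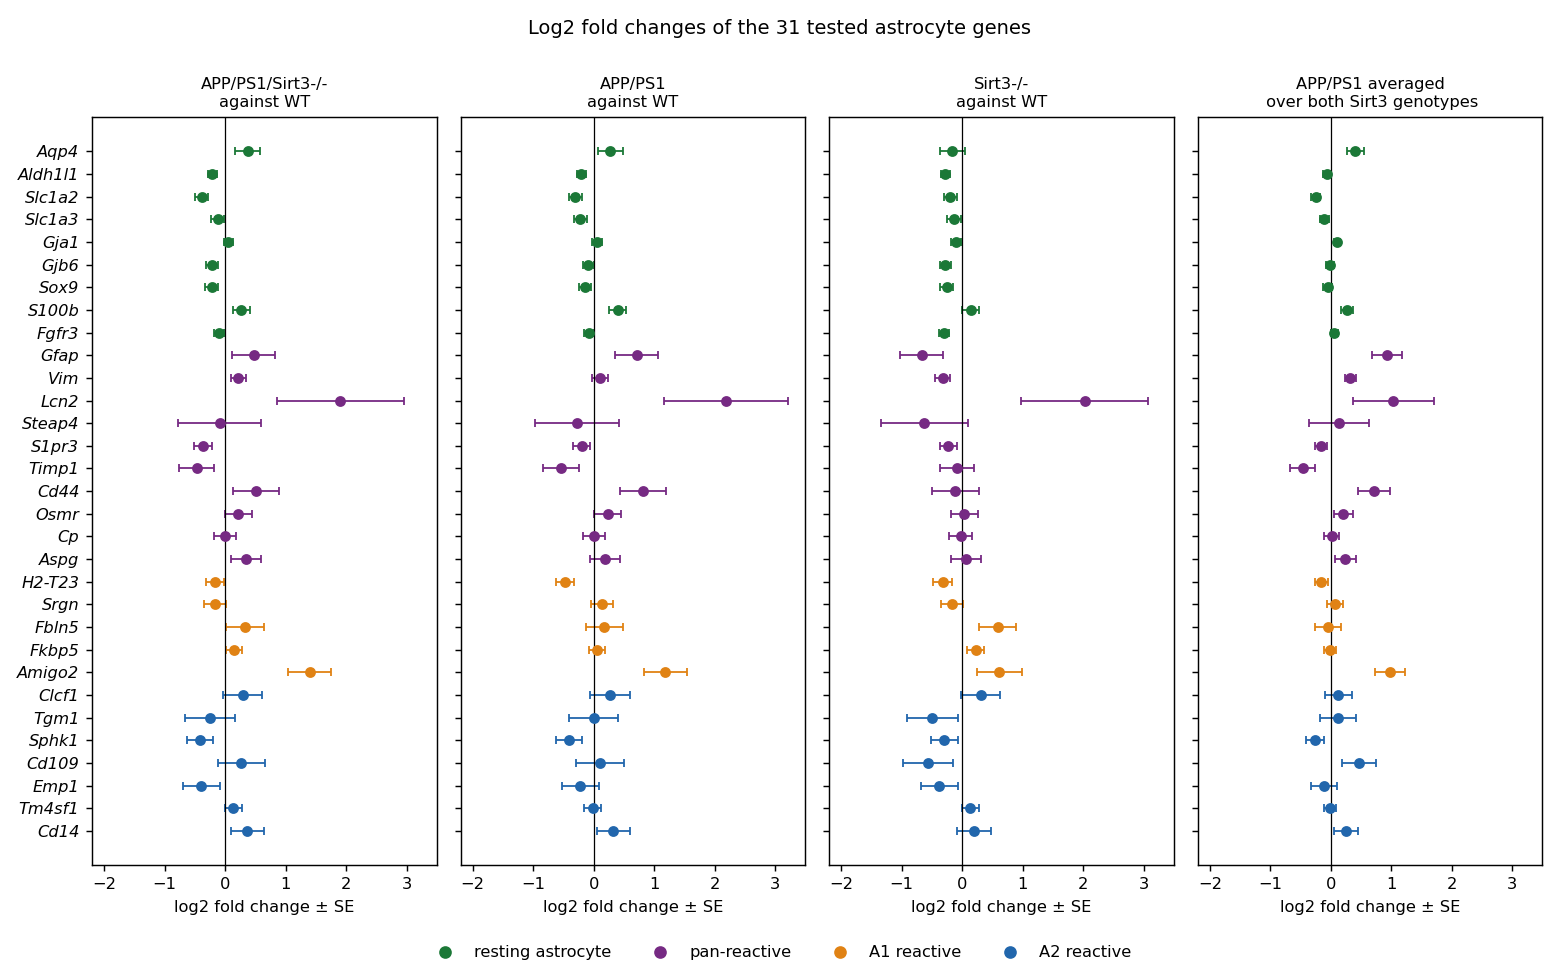
Log2 fold changes with their standard errors from edgeR for the 31 members tested, in APP/PS1/Sirt3-/-, APP/PS1 and Sirt3-/- against WT and in APP/PS1 averaged over both Sirt3 genotypes. Colours give the 9 resting, 10 pan-reactive, 5 A1 and 7 A2 genes. Most resting markers lie at or just below 0, Amigo2 and Gfap lie to the right in the averaged comparison, and Lcn2, with few reads, has wide errors.

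A2 genes were the least abundant set, with a middle value of 0.472 FPKM over their 10 medians. Tm4sf1, a membrane protein of endothelium, was the most abundant with a median of 4.15 FPKM, and lay between 8.85 and 13.4 CPM. Cd14, a receptor for lipopolysaccharide that microglia make, measured 3.58, 3.11 and 3.18 CPM in APP/PS1/Sirt3-/- libraries, against 1.83, 2.72 and 3.11 CPM in WT libraries, apart by less than the rounding shown, with a log2 fold change of 0.37 (SE 0.28). Sphk1, which makes sphingosine 1-phosphate, measured 4.98, 6.75 and 5.76 CPM in APP/PS1 libraries, against 8.45, 6.85 and 7.87 CPM in WT libraries, lower without overlap, with -0.41 (SE 0.22). Cd109, Emp1, Clcf1 and Tgm1 overlapped between each mutant group and WT. Ptx3 had 64 reads in the 12 libraries together and B3gnt5 68. Slc10a6 had 5, with 7 libraries at 0. Differences in these 3 genes were not detectable at this depth.

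Resting and reactive genes were then set against each other by their medians. The 22 reactive genes tested had a median log2 fold change of 0.18 in APP/PS1/Sirt3-/- against WT, and the 9 resting markers -0.12. In APP/PS1 against WT the medians were 0.10 for reactive and -0.09 for resting genes. In Sirt3-/- against WT both were negative, -0.10 and -0.20. The median over all genes tested was 0.01, 0.01 and 0.00. Reactive minus resting came to 0.31, 0.19 and 0.10 in the 3 comparisons. Single libraries within a group had an SD of 0.14 in reactive minus resting median log2 CPM. That SD is of libraries, so it does not give the spread of a difference between groups. With the brain region covariates the values in APP/PS1/Sirt3-/- and APP/PS1 became -0.06 and -0.14. Thalamic level was higher in all libraries of both groups than in WT, so that fit cannot separate region from genotype. Without the 3 libraries against their labels, reactive minus resting was 0.33 and 0.25. The lists of further genes differed less: 21 reactive and 20 resting genes had medians of 0.08 and -0.04 in APP/PS1/Sirt3-/-, 0.07 and 0.04 in APP/PS1, and -0.10 and -0.15 in Sirt3-/-, each against WT, so that reactive minus resting was 0.12, 0.03 and 0.05. No p-value was given to these medians, since the members were chosen with results known.

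**Figure D4:**
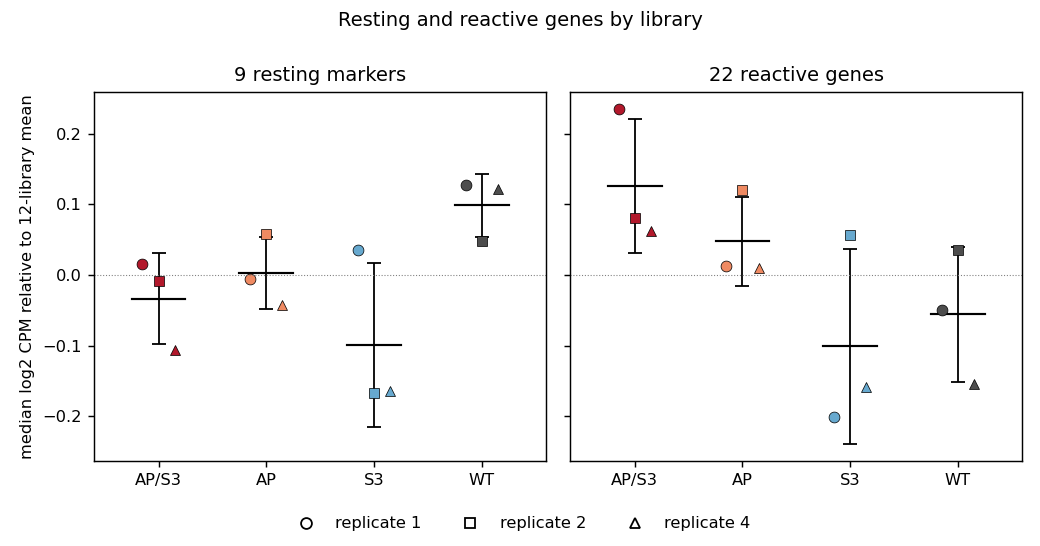
Median over genes of log2 CPM relative to the mean of the 12 libraries, for the 9 resting markers and the 22 reactive genes tested. Points are libraries of APP/PS1/Sirt3-/- (AP/S3), APP/PS1 (AP), Sirt3-/- (S3) and WT, and lines give mean ± SD. The reactive median is above 0 in all 6 libraries of the APP/PS1 groups, narrowly in APP/PS1 replicates 1 and 4, and also in Sirt3-/- replicate 2 and WT replicate 2. APP/PS1 replicate 4 has App at the WT level. The resting median is above 0 in all 3 WT libraries and also in APP/PS1/Sirt3-/- replicate 1, APP/PS1 replicate 2 and Sirt3-/- replicate 1. The Sirt3-/- libraries spread widely in both medians.

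By library, the median of the reactive genes relative to the series mean was 0.24, 0.08 and 0.06 in APP/PS1/Sirt3-/-, 0.01, 0.12 and 0.01 in APP/PS1, -0.20, 0.06 and -0.16 in Sirt3-/- and -0.05, 0.04 and -0.15 in WT, in log2 units. That of the resting markers was 0.01, -0.01 and -0.11 in APP/PS1/Sirt3-/-, -0.01, 0.06 and -0.04 in APP/PS1, 0.04, -0.17 and -0.16 in Sirt3-/- and 0.13, 0.05 and 0.12 in WT. In the reactive median APP/PS1/Sirt3-/- lay above WT, while APP/PS1 and Sirt3-/- overlapped WT. In the resting median APP/PS1/Sirt3-/- and Sirt3-/- lay below WT, and APP/PS1 overlapped it.

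Without overlap between groups, 7 members of 31 separated APP/PS1/Sirt3-/- from WT. Higher were Vim, Amigo2 and Cd14 (3 of 31, background 13.0%), and lower were Aldh1l1, Slc1a2, Gjb6 and S1pr3 (4 of 31, background 12.5%). Between APP/PS1 and WT, S100b and Amigo2 were higher (2 of 31, background 13.3%) and Aldh1l1, Slc1a2, Slc1a3, H2-T23 and Sphk1 lower (5 of 31, background 14.6%). Between Sirt3-/- and WT, S100b and Lcn2 were higher (2 of 31, background 10.3%) and Aldh1l1, Gjb6, Sox9, Fgfr3, Gfap and Vim lower (6 of 31, background 8.49%). These 3 comparisons share the WT libraries. When the 3 libraries against their labels were left out, APP/PS1 (2 libraries) had 6 of 31 members above and 6 below WT, where 18.7% and 19.5% of all genes were, and APP/PS1/Sirt3-/- (1 library) had 10 above and 11 below, where 32.6% and 31.6% were. An exact two-sided permutation test of 3 libraries against 3 cannot go below a p of 0.1.

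The comparison of APP/PS1/Sirt3-/- with APP/PS1 asks what Sirt3 deletion adds to the transgenes. With edgeR, 0 of 31 members passed (background 0.0240%), 0 had an unadjusted p under 0.05 (backgrounds 2.26% higher and 2.60% lower), and DESeq2 called 0 (background 0.0420%). H2-T23 was first by p, at 25.7, 21.1 and 24.9 CPM in APP/PS1/Sirt3-/- libraries, against 18.5, 20.3 and 19.6 CPM in APP/PS1 libraries, with 0.30 (SE 0.15, adjusted p = 0.974). Srgn followed with -0.31 (SE 0.18, adjusted p = 0.974) and Gjb6 with -0.13 (SE 0.10, adjusted p = 0.974). Gfap had -0.24 (SE 0.35) and Amigo2 0.21 (SE 0.34), each smaller than its SE. H2-T23 was higher and Srgn and Slc1a2 were lower in APP/PS1/Sirt3-/- without overlap (1 of 31 and 2 of 31, backgrounds 5.70% and 6.21%). Replicates 1 and 4 of APP/PS1/Sirt3-/- held Sirt3 reads, and without them and APP/PS1 replicate 4 the value for H2-T23 was 0.12, from 1 library against 2.

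For the interaction, which asks whether the APP/PS1 difference was larger with Sirt3 deleted than with Sirt3 intact, 0 of 31 members passed (background 0%). At an unadjusted p under 0.05 there were 4 of 31, all positive (backgrounds 3.06% positive and 3.41% negative), and DESeq2 called 0 (background 0.0721%). The first were H2-T23 with 0.62 (SE 0.22, adjusted p = 0.745), Aldh1l1 with 0.28 (SE 0.11, adjusted p = 0.745) and Vim with 0.44 (SE 0.18, adjusted p = 0.745). Gfap had 0.43 (SE 0.50, adjusted p = 0.910). APP/PS1/Sirt3-/- replicates 1 and 4 held Sirt3 reads and APP/PS1 replicate 4 had App at the WT level, and without these 3 libraries the interaction was 0.44 for H2-T23, 0.30 for Aldh1l1, 0.37 for Vim and 0.33 for Gfap, with 0 members passing. The resting markers had a median interaction of 0.18 and the reactive genes 0.04, beside -0.01 over all genes.

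Further astrocyte genes outside the 34 gave 1 gene that passed. Slc6a11, the astrocyte GABA transporter GAT-3, which is abundant in thalamus, measured 397, 422 and 272 CPM in APP/PS1/Sirt3-/- libraries, 334, 348 and 319.7 CPM in APP/PS1 libraries, 155, 256 and 199.7 CPM in Sirt3-/- libraries and 176, 176 and 168 CPM in WT libraries. It rose by 1.07 (SE 0.18, adjusted p = 0.0317) on the log2 scale in APP/PS1/Sirt3-/- against WT and by 0.89 (SE 0.13, adjusted p = 0.0170) averaged over both Sirt3 genotypes. All libraries of the APP/PS1 groups lay above all WT libraries, also APP/PS1 replicate 4, which had App at the WT level. Over the 25 alternatives the adjusted p in APP/PS1/Sirt3-/- against WT ran from 8.82e-11 to 0.919, and 17 passed. With the 3 libraries against their labels left out, the 2 values were 1.28 and 1.01 (edgeR adjusted p = 0.0324 and 0.00972). It was the only gene of a list of 20 further resting astrocyte genes that passed in any of the 6 comparisons. Of 21 further reactive genes tested, none passed. In the averaged comparison Hspb1, a small heat shock protein, had 0.42 (SE 0.11, adjusted p = 0.0544) and Serpina3n, a protease inhibitor of reactive astrocytes, 0.66 (SE 0.16, adjusted p = 0.0586). Without those 3 libraries they had 0.30 and 0.75. Serpina3n measured 16.5, 17.6 and 19.4 CPM in APP/PS1/Sirt3-/- libraries, 18.5, 30.7 and 14.9 CPM in APP/PS1 libraries, 10.5, 12.6 and 14.1 CPM in Sirt3-/- libraries and 11.9, 14.5 and 10.3 CPM in WT libraries. The 6 libraries of the APP/PS1 groups were above all WT libraries, and APP/PS1 replicate 4, with App at the WT level, was so by the least.

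Signalling genes upstream of Gfap were tested in the same way. Of 12 genes of interleukin-6 family signalling 9 could be tested and none passed in any of the 6 comparisons. Stat3 was counted among the further reactive genes, of which none passed. Stat3 had 1148, 1204 and 1236 reads in APP/PS1/Sirt3-/- libraries and 1146, 1017 and 964 in APP/PS1 libraries. In Sirt3-/- libraries it had 879, 1086 and 975, and in WT libraries 1059, 894 and 869, not scaled for library size. Socs3, the feedback inhibitor of this pathway, measured 5.14, 4.27 and 5.61 CPM in APP/PS1/Sirt3-/- libraries, 4.23, 5.21 and 4.17 CPM in APP/PS1 libraries, 5.77, 3.50 and 4.88 CPM in Sirt3-/- libraries and 7.94, 5.98 and 6.09 CPM in WT libraries, and its log2 fold change was -0.56 (SE 0.20, adjusted p = 0.201) in APP/PS1 against WT. Tyk2 followed in APP/PS1/Sirt3-/- against WT with -0.26 (SE 0.11, adjusted p = 0.197). Il6st, the shared receptor subunit, measured 111, 111 and 91.8 CPM in APP/PS1/Sirt3-/- libraries, against 90.6, 92.3 and 89.2 CPM in WT libraries. Of 12 genes induced by glucocorticoids, none passed. In the averaged comparison 10 of the 12 were negative, with a median of -0.23, where 49.9% of all genes tested were negative. Against WT their median was -0.13 in APP/PS1/Sirt3-/-, -0.10 in APP/PS1 and 0.02 in Sirt3-/-. Klf9, a transcription factor, was first in the averaged comparison with -0.27 (SE 0.09, adjusted p = 0.116), beside -0.01 for the member Fkbp5.

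**Figure D5:**
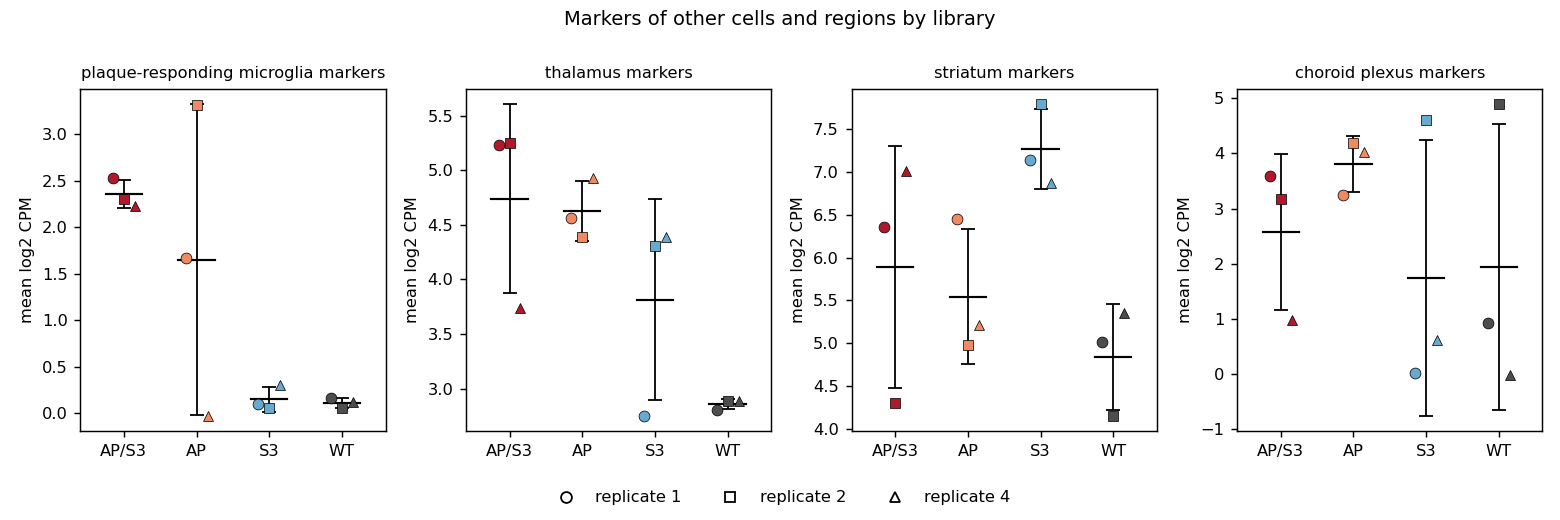
Mean log2 CPM of markers of plaque-responding microglia (6 genes), thalamus (8), striatum (8) and choroid plexus (8) by library, in APP/PS1/Sirt3-/- (AP/S3), APP/PS1 (AP), Sirt3-/- (S3) and WT, with mean ± SD of 3 libraries. Plaque-responding microglia markers are high in 5 libraries of the APP/PS1 groups and low in APP/PS1 replicate 4, thalamic markers are low in the WT libraries and Sirt3-/- replicate 1, and choroid plexus markers vary within groups.

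Markers of other cells and regions also differed between libraries. In log2 CPM, the 6 markers of plaque-responding microglia averaged 2.52, 2.31 and 2.23 in APP/PS1/Sirt3-/-, 1.67, 3.31 and -0.03 in APP/PS1, 0.09, 0.05 and 0.30 in Sirt3-/- and 0.16, 0.05 and 0.13 in WT libraries. Summed, they came to 54.0 to 63.7 CPM in APP/PS1/Sirt3-/-, 28.5 to 107 CPM in APP/PS1, 27.0 to 33.0 CPM in Sirt3-/- and 30.0 to 31.4 CPM in WT. Of the defining genes, Cst7 was at 0 in Sirt3-/- replicate 2 and WT replicate 1 and Clec7a in WT replicate 2. Their part in the members' values was not tested. Their highest library, APP/PS1 replicate 2, was also the highest for Gfap, Cd44, Osmr and Serpina3n, and their lowest library of the APP/PS1 groups, APP/PS1 replicate 4, had Gfap and Vim within the WT range and Amigo2 above it.

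Thalamic markers (8 of 8 measured) summed to 165 to 430.2 CPM in APP/PS1/Sirt3-/-, 266 to 353 CPM in APP/PS1, 80.1 to 235 CPM in Sirt3-/- and 94.5 to 105 CPM in WT. Tcf7l2 among them measured 60.4, 60.2 and 9.08 CPM in APP/PS1/Sirt3-/- libraries, 40.1, 52.4 and 47.8 CPM in APP/PS1 libraries, 4.65, 17.0 and 22.3 CPM in Sirt3-/- libraries and 4.68, 6.58 and 6.41 CPM in WT libraries, and Gbx2 was at 0 in WT replicate 2. APP/PS1/Sirt3-/- replicate 4 was low in thalamic markers and in Gfap, Aqp4 and Slc6a11 within its group, while its Amigo2 level was still above all WT libraries. APP/PS1 replicate 4 had the highest thalamic sum and the lowest Gfap of its group, but it also had App and plaque-responding microglia markers at about the WT level. Striatal markers (8 of 8) summed to 213 to 1374 CPM in APP/PS1/Sirt3-/-, 358 to 951 CPM in APP/PS1, 1291 to 2360 CPM in Sirt3-/- and 240.4 to 481 CPM in WT, and the Sirt3-/- libraries, low in Gfap, were all above WT. Choroid plexus markers (8 of 8) summed to 36.2 to 627 CPM in APP/PS1/Sirt3-/-, 536 to 1169 CPM in APP/PS1, 17.1 to 1340 CPM in Sirt3-/- and 14.0 to 1729 CPM in WT, and Kcnj13 among them was at 0 in Sirt3-/- replicate 1. With the levels of these 3 region lists as covariates, no member passed in any comparison. These 3 covariates leave few degrees of freedom over 12 libraries. Every library of the APP/PS1 groups also had a higher thalamic sum than every WT library, so thalamic level and genotype cannot be told apart there. How far each region accounts for a member's difference was not tested.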

How the data were processed

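RNA-seq of brain cortex gave 12 libraries, 3 for each of 4 genotypes, grouped by title. Per the labels and the study's methods, poly(A) libraries were made with a kit that does not mark strand, and the authors mapped reads to GRCm38 (mm10) by TopHat. They deposited whole-number read counts per gene and FPKM values, which were used here for levels between genes. The gene counter and annotation were not given in the sources used here. Comparison columns of the authors (log2 fold changes, p-values, group means) were not used. Gene positions were compared with GENCODE vM21.

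The edgeR package (4.0.16, R 4.3.3) was used on the counts. Its filterByExpr left 16673 of 35275 genes, with TMM scaling, 1 robust quasi-likelihood fit of 4 group means, 6 contrasts, and Benjamini and Hochberg adjustment over all genes tested. CPM used TMM library sizes, and log2 CPM a prior count of 2. DESeq2 1.42.0 and other settings were alternatives. The steps were tested on simulated data. Depth was 15251720 to 18644376 reads, so genes under 1 CPM rest on few reads. Figures used matplotlib 3.10.9.

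All 34 members could be named with levels. Full statistics were given for members past the threshold and otherwise for the 3 with the smallest p in a comparison, and from other lists for up to 2 genes. Gfap is given in every comparison, and fold changes of other members beside their levels, outside this rule. Members and lists were chosen with earlier results of these data known.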

Additional observations from a re-analysis of the deposited data

How the results depend on the processing

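The count of members past the threshold was 0 in the 6 comparisons and moved as follows. In APP/PS1/Sirt3-/- against WT it was 2 with DESeq2 on all 12 libraries, 2 with edgeR and 2 with DESeq2 on the compared groups alone (Amigo2 and Slc1a2 each time, backgrounds 6.31%, 4.67% and 7.06%), and 1 (S100b) without the 2 APP/PS1/Sirt3-/- libraries with Sirt3 reads or without the 3 libraries against their labels (1.11% and 0.792%). In APP/PS1 against WT it was 1 with DESeq2 on all libraries (Amigo2, 3.07%), 4 with edgeR and 5 with DESeq2 on the compared groups alone (backgrounds 6.81% and 8.03%), and 1 (S100b) without the 2 libraries with Sirt3 reads (0.753%). In Sirt3-/- against WT it was 2 with DESeq2 on all libraries (Aldh1l1 and Fgfr3, 2.60%) and 1 with DESeq2 on the compared groups alone (Gfap, 2.36%). Averaged over both Sirt3 genotypes, APP/PS1 gave 5 with DESeq2 (6.58%), 1 without the 2 libraries with Sirt3 reads (S100b, 4.59%), 3 without the 3 libraries (Aqp4, Gfap and S100b, 2.72%), 1 with a sex covariate and 1 without the 4 libraries with Y-linked reads (Aqp4 both times, 2.38% and 0.699%). Percentages are the share of all genes called in the same setting. The cause was not tested.

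Leaving out each library in turn gave 0 to 2 members in APP/PS1/Sirt3-/- against WT, 0 to 2 in APP/PS1 against WT and 0 to 4 in the averaged comparison. Without Sirt3-/- replicate 1 the first was 2 (2.84% of all genes). Without Sirt3-/- replicate 2 these counts were 2, 2 and 3 (6.91%, 3.44% and 10.8%), and without APP/PS1/Sirt3-/- replicate 4 they were 1, 1 and 4 (4.77%, 1.52% and 8.18%). Reactive minus resting was -0.057 in APP/PS1/Sirt3-/- and -0.14 in APP/PS1, each against WT, with the brain region covariates, and 0.15 in the first without the 4 libraries with Y-linked reads, against 0.31 and 0.19 in the fit of all libraries. Aldh1l1 turned to 0.067 in APP/PS1/Sirt3-/- against WT with those covariates.

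The labels do not say that the replicate numbers pair the libraries, but same-numbered libraries were somewhat more alike. Correlations of their deviations ran from -0.11 to 0.23 (median 0.10), and 9 of 18 were over 0.1. Between different numbers the median was -0.05, and 5 of 36 were over 0.1. Replicate 4 was also the number with Y-linked reads in every group. What same-numbered libraries share was not tested. For 9 of the 12 libraries the highest correlation was with their own number. With the replicate block 2 members (Amigo2 and Aqp4, 2.47%) passed in the averaged comparison and 0 in the others. The 2 alternatives about Y-linked reads were chosen after seeing the data. Depth limits Lcn2, Steap4 and the A2 genes under 1 CPM.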
